A study of Homo sapiens with 6 samples.

Results

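The NF-kB subunits and their inhibitors were described in MIA PaCa-2 cells, an established human pancreatic carcinoma line, by RNA sequencing. The members are the 5 subunits NFKB1, NFKB2, RELA, RELB and REL, the inhibitor genes NFKBIA, NFKBIB, NFKBIE and NFKBIZ, and TNFAIP3. Members were found by their symbol in the gene column of the deposited table, and all 10 had a row among 18268. Of these rows 9 name a single gene. The row of NFKBIZ is joined with NXPE3, a neighbouring gene, and its value cannot be assigned to either.

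All 6 libraries came from total RNA of MIA PaCa-2 cells grown in medium with fetal bovine and horse serum. The control cells carried the pCDH vector (n = 3), and the other cells overexpressed the long noncoding RNA LINC00901 (n = 3). The labels name no stimulus, and they do not say whether each kind of cell is a clone or a pool, or whether replicates were separate cultures. The spread behind each p-value is therefore that of these libraries alone and may be purely technical. In bulk RNA, fewer cells with a transcript and less transcript per cell cannot be told apart.

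NF-kB is a family of dimeric transcription factors made from 5 related proteins that share the Rel homology domain. RELA, RELB and REL carry a transactivation domain, whereas NFKB1 and NFKB2 encode long precursors that are processed to the DNA-binding subunits p50 and p52. The IkB proteins hold the dimers inactive, mainly in the cytoplasm, until the IKK kinase complex marks them for degradation. Several inhibitors, among them NFKBIA and TNFAIP3, are themselves induced by NF-kB and close a negative feedback loop. Constitutive NF-kB activity is well known in pancreatic carcinoma cells.

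The promoters of several members hold letters that match the motif NF-kB is known to bind. The 10-base kB consensus was searched on both strands of RefSeq promoters (build GRCh38.p14, 250 bases before to 50 after each start), and overlapping matches were merged. Of the members, 8 had 1 or more entries, and 7 of these had a match: NFKB1, NFKB2, REL, NFKBIA, NFKBIB, NFKBIZ and TNFAIP3. By entry, 9 of 14 held a match, against 11.3% of all 35116 entries and 13.3% of the 12283 entries of tested genes. The entries of RELA held none within this window. Windows of 30 bases are shown for members that differ in how their RNA changed, with the matched bases in capitals, written 5′ to 3′ on the strand of the gene.
TNFAIP3 (chr6:137867188-137867217, + strand): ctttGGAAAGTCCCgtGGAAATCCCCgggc
NFKBIA (chr14:35404811-35404840, - strand): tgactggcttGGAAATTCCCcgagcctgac
NFKB2, match 107 bases before the start (chr10:102394461-102394490, + strand): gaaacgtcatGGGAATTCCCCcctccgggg
NFKB2, match 78 bases before the start (chr10:102394490-102394519, + strand): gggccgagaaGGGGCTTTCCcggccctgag
NFKB1 (chr4:102501300-102501329, + strand): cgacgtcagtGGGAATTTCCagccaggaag
REL (chr2:60881517-60881546, + strand): cgtcagccgcGGGAAATTCCCctcccgcca
The matches of TNFAIP3 begin 67 and 55 bases before the start, that of NFKBIA 81 bases, those shown of NFKB2 107 and 78 bases, that of NFKB1 49 bases and that of REL 47 bases. A further RefSeq start of NFKB2 had matches 176 and 21 bases before it, and the other entry had none. A match is a stretch of letters and not evidence of binding, and as the values below show, matches were present both in members that rose and in members that did not pass the test.

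Values are FPKM, fragments scaled to gene length and library total. Their sums were 87162 to 88738 in the vector libraries and 127768 to 128538 in the overexpression libraries, and the depth behind them is unknown. The median of the 9694 tested genes was 0.27 log2 (1.20-fold) higher with LINC00901 overexpression, and centring each library on its median removed 0.21. Results are therefore given unscaled and, for the members and for the counts of each list, also centred. No row names LINC00901, so its own level was not analysed here. Of the epithelial markers, KRT18 (62.48 to 105.38 FPKM) and KRT19 (2.22 to 25.02) were present, whereas EPCAM and CDH1 did not exceed 0.14 and 0.08 in any library. KRT19 was higher and KRT18 lower with overexpression, and VIM, a mesenchymal marker, stood at 577 ± 49.5 against 229 ± 27.5 FPKM (SD, n = 3). Of 4 tested epithelial markers 1 was higher and 2 lower, and of 4 mesenchymal ones 2 were higher and 1 lower. Of all tested genes 37.4% were higher and 11.9% lower. Whether their changes have a part in those of the members was not tested. Of 6 rows of leukocyte markers 3 were listed at 0 throughout, PTPRC and CD3E among them, and LYZ reached 0.18 FPKM in 1 library. CD14, a monocyte marker below the filter, was at 0, 0.48 and 0 FPKM with the vector and 0.62, 1.37 and 1.34 with overexpression. The row that joins CD68 with EIF4A1 and SENP3 was higher by 0.53 log2 (limma adjusted p = 0.00302). Whether these markers have a part in the changes of the members was not tested.

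With LINC00901 overexpression, 8 of the 10 members were higher and 0 lower by limma on log2(FPKM + 0.5) at an adjusted p of 0.05, against 37.4% and 11.9% of all tested genes. Their median log2 change was 0.93, against 0.27 for all tested genes. The 2 that did not pass were NFKB1 and REL. After median centring 5 members were higher (TNFAIP3, NFKB2, NFKBIE, RELB and the NFKBIZ row), against 24.0% of all tested genes, and 0 were lower, against 19.2%. With a correction for gene length and GC content, which could be computed for 9 members, 3 were higher (TNFAIP3, NFKB2 and NFKBIE), against 20.5%, and 0 lower, against 18.0%. The groups did not overlap for any member, with 9 higher and 1 lower in overexpression, against 44.9% and 15.6% of tested genes. RELB, the NFKBIZ row and TNFAIP3 had a vector mean under 1 FPKM and passed the filter of 1 FPKM only through the overexpression libraries. Without that filter their limma adjusted p was 0.0492, 0.0111 and 0.000969.

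**Figure D1:**
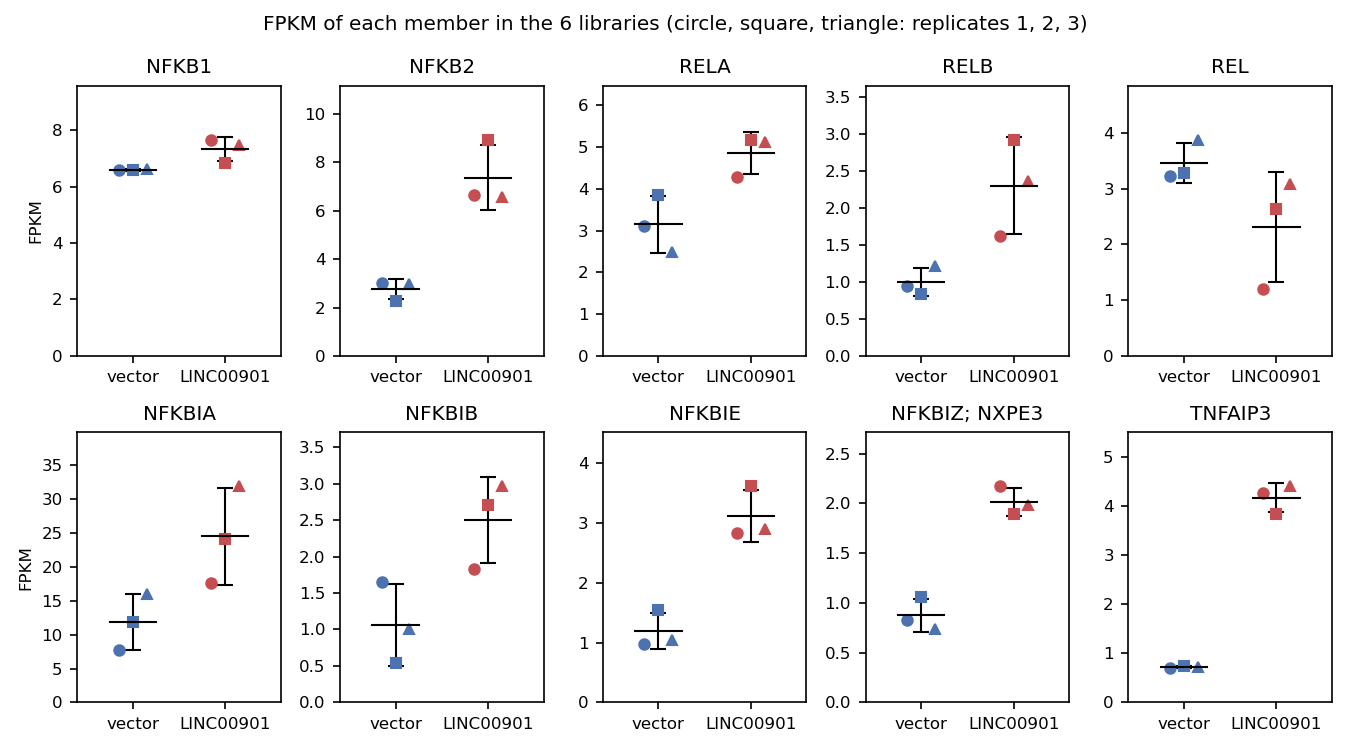
FPKM of the 10 members (linear axes from 0, one panel per row of the table) in the 3 vector and 3 LINC00901 overexpression libraries. Symbols mark the replicate number, horizontal bars the group mean and error bars the SD. TNFAIP3 lies at 0.71 to 0.74 with the vector and 3.84 to 4.40 with overexpression, while REL is the one member with lower values in overexpression.

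NFKB2, the precursor of p52 and the substrate of the alternative pathway, showed the largest rise among the subunits. It stood at 3.01, 2.29 and 2.99 FPKM with the vector and 6.64, 8.93 and 6.56 with overexpression. Every overexpression library was thus well above every vector library. The means were 2.76 ± 0.410 and 7.38 ± 1.35 FPKM (SD, n = 3), a ratio of 2.67 and a log2 change of 1.27 ± 0.16 (SE; limma adjusted p = 0.00107). The change was 1.06 log2 after median centring (adjusted p = 0.00272) and 0.84 with the length and GC correction (adjusted p = 0.00390).

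RELB, which pairs with p52 in the alternative pathway, was at 0.94, 0.84 and 1.21 FPKM in the vector libraries. With overexpression it was at 1.62, 2.92 and 2.37 FPKM. The lowest overexpression value lay close above the highest vector value. The log2 change was 0.89 ± 0.21 (SE; limma adjusted p = 0.0122), and 0.68 after median centring (adjusted p = 0.0373). With the length and GC correction the change of RELB was 0.27 log2 and the test was not passed (adjusted p = 0.235).

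RELA, which encodes the transactivating subunit p65 of the classical dimer, was at 3.10, 3.86 and 2.49 FPKM with the vector and 4.28, 5.17 and 5.11 with overexpression. The groups lay next to each other without overlap, and the spread within the vector group was wide (SD 0.686 FPKM around a mean of 3.15). The log2 change of RELA was 0.57 ± 0.16 (SE; limma adjusted p = 0.0266), but 0.36 after median centring (adjusted p = 0.131) and 0.19 with the length and GC correction (adjusted p = 0.409). It also missed the threshold without vector replicate 1 (adjusted p = 0.0606) or 3 (0.0602) and without overexpression replicate 2 (0.0796) or 3 (0.0826).

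NFKB1, the precursor of p50, had the smallest relative spread of the members in both groups. Its vector values were 6.57, 6.58 and 6.61 FPKM, and its overexpression values were 7.65, 6.85 and 7.48. The groups did not overlap, but the means of 6.59 ± 0.0208 and 7.33 ± 0.421 FPKM (SD, n = 3) differed by 0.14 log2 (95% confidence interval -0.07 to 0.36; limma adjusted p = 0.230). The sign depends on the scaling, since NFKB1 was 0.07 log2 below the vector after median centring (a change of -0.07, interval -0.28 to 0.14).

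REL, the subunit c-Rel best known from lymphoid cells, was the one member with lower values. It was at 3.23, 3.28 and 3.87 FPKM with the vector and 1.20, 2.64 and 3.09 with overexpression. Overexpression replicate 1 lay far below the other libraries, and replicate 3 came close to the lowest vector library. The log2 change of REL was -0.56 ± 0.28 (SE; limma adjusted p = 0.135) and -0.77 after median centring (adjusted p = 0.0629), neither past the threshold. Without overexpression replicate 1 the unscaled change was -0.23 (adjusted p = 0.237).

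**Figure D2:**
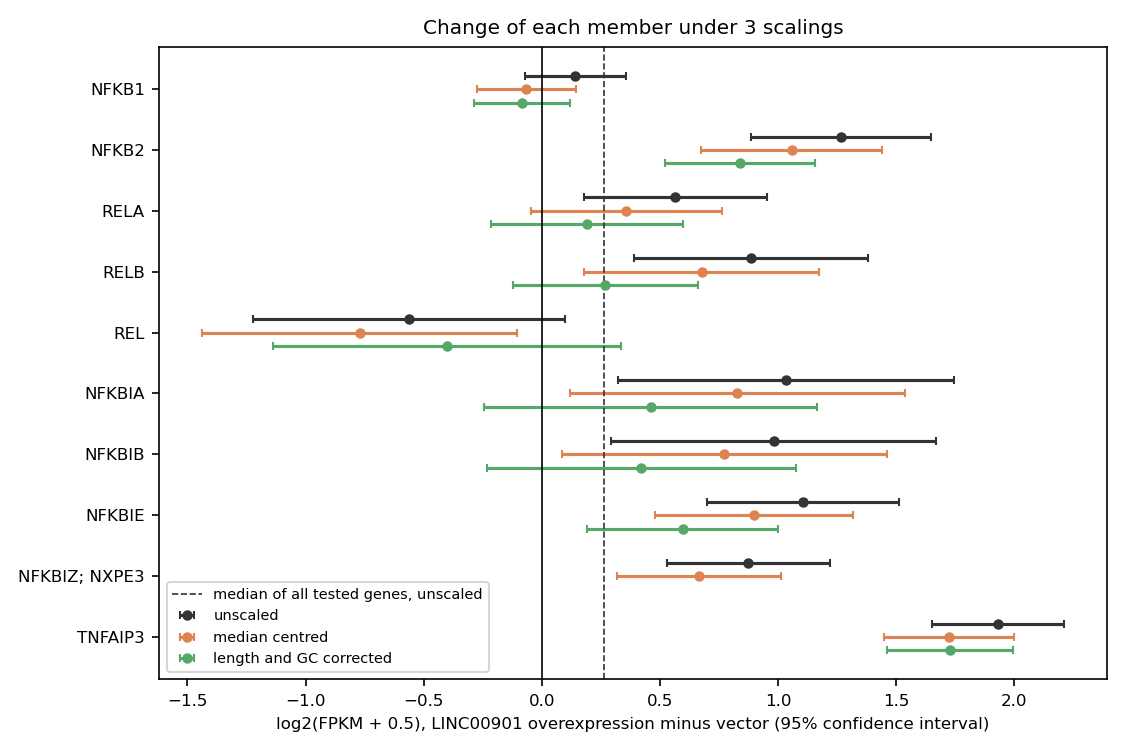
Difference in log2(FPKM + 0.5) between LINC00901 overexpression and vector for each member, with 95% confidence intervals from limma, for unscaled values, median-centred values and values corrected for gene length and GC content (none for the joined NFKBIZ row). The dashed line is the unscaled median of all tested genes, 0.27. The intervals of TNFAIP3, NFKB2 and NFKBIE lie above 0 under all 3 scalings, and those of NFKB1 include 0 under all 3.

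Among the inhibitors, NFKBIA (IkBα, the main feedback inhibitor of RELA dimers) had the highest level of all members and a wide spread in both groups. The vector libraries were at 7.68, 11.85 and 16.07 FPKM, and the overexpression libraries at 17.60, 24.07 and 31.88. The highest vector library lay close below the lowest overexpression library, and both groups spanned a wide range. The means of 11.9 ± 4.20 and 24.5 ± 7.15 FPKM (SD, n = 3) differed by 1.03 log2 (95% confidence interval 0.32 to 1.75; limma adjusted p = 0.0267). The difference was 0.83 after median centring (adjusted p = 0.0614) and 0.46 with the length and GC correction (adjusted p = 0.255). It also missed the threshold without vector replicate 1 (adjusted p = 0.0605) or 2 (0.0611) and without overexpression replicate 2 (0.0690) or 3 (0.0782). With replicate number as a block NFKBIA passed, unscaled (limma adjusted p = 0.00291) and median centred (0.00570). The labels do not say that the numbers pair libraries.

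NFKBIE (IkBε, another inducible inhibitor in the cytoplasm) changed with less spread. It stood at 0.98, 1.54 and 1.05 FPKM with the vector and 2.83, 3.61 and 2.90 with overexpression. The lowest overexpression value was well above the highest vector value. The log2 change of NFKBIE was 1.10 ± 0.17 (SE; limma adjusted p = 0.00234), 0.90 after median centring (adjusted p = 0.00705) and 0.60 with the length and GC correction (adjusted p = 0.0314).

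NFKBIB (IkBβ, an inhibitor that is degraded more slowly) was at 1.65, 0.54 and 1.0 FPKM with the vector and 1.83, 2.70 and 2.96 with overexpression. Vector replicate 1 and overexpression replicate 1 were close to each other. The log2 change of NFKBIB was 0.98 ± 0.29 (SE; limma adjusted p = 0.0285), but 0.77 after median centring (adjusted p = 0.0692) and 0.42 with the length and GC correction (adjusted p = 0.262). The threshold was missed without vector replicate 2 (adjusted p = 0.0605) or 3 (0.0650) and without overexpression replicate 2 (0.0833) or 3 (0.0897).

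The joined row of NFKBIZ, a nuclear atypical IkB that directs secondary response genes, and NXPE3 was at 0.83, 1.06 and 0.74 FPKM in the vector libraries. It was at 2.17, 1.89 and 1.98 with overexpression, with no overlap and a narrow spread in both groups. Its log2 change was 0.87 ± 0.14 (SE; limma adjusted p = 0.00302), and 0.67 after median centring (adjusted p = 0.0110). How far NFKBIZ rather than NXPE3 contributed was not tested.

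TNFAIP3 (A20), a ubiquitin-editing enzyme that shuts off signalling from the TNF receptor and Toll-like receptors to IKK, showed the largest change of the family. It was at 0.71, 0.74 and 0.72 FPKM with the vector and 4.27, 3.84 and 4.40 with overexpression. Both groups were tight, and the ratio of the means was 5.76. The log2 change was 1.93 ± 0.12 (SE; limma adjusted p = 0.000114), which ranked 87 among the 9694 tested genes from the largest rise. TNFAIP3 also passed after median centring (1.72 log2, adjusted p = 0.000215) and with the length and GC correction (1.73, adjusted p = 0.000343). Its change was 1.90 to 1.98 log2 when each library was left out in turn.

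The order of levels differed between the groups. In the vector libraries NFKBIA came first, then NFKB1, REL, RELA, NFKB2, NFKBIE, NFKBIB, RELB, the NFKBIZ row and TNFAIP3. REL, RELA and NFKB2 overlapped with their neighbours in that order, as did NFKBIE, NFKBIB, RELB, NFKBIZ and TNFAIP3 with theirs. In the overexpression libraries NFKBIA again came first, followed by NFKB2 and NFKB1, whose ranges overlapped (6.56 to 8.93 and 6.85 to 7.65 FPKM). RELA and TNFAIP3 came next and overlapped with each other, and below them NFKBIE, NFKBIB, REL, RELB and the NFKBIZ row overlapped from neighbour to neighbour. TNFAIP3 thus stood last of 10 in the vector libraries and in place 5 with overexpression, and REL moved from place 3 to place 8.

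Shares within a library do not depend on how libraries are scaled to each other, although a trend with gene length could still act on them. The 5 subunits summed to 16.85, 16.85 and 17.17 FPKM with the vector and 21.39, 26.51 and 24.61 with overexpression. NFKB2 made up 17.9%, 13.6% and 17.4% of that sum in the vector libraries and 31.0%, 33.7% and 26.7% in the others. REL made up 19.2%, 19.5% and 22.5%, against 5.61%, 9.96% and 12.6%. The share of NFKB2 was thus higher, and that of REL lower, in every overexpression library than in any vector library. NFKB1 made up 30.7% ± 4.97 of the sum against 38.8% ± 0.304 and RELB stood at 9.41% ± 1.73 against 5.87% ± 1.06 (SD, n = 3). RELA made up 18.6% ± 4.21 in the vector libraries and 20.1% ± 0.635 with overexpression (SD, n = 3; two-sided exact permutation p = 0.7), a difference of 1.49 percentage points that became -0.56 without vector replicate 3. For the shares of NFKB1, NFKB2, RELB and REL the two-sided exact permutation p was 0.1, the smallest that 3 against 3 libraries allow. It was 0.15 adjusted over 6 measures, the shares of the 5 subunits and the log2 inhibitor to subunit ratio given below. The shares sum to 100%, so they are not independent.

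The summed FPKM of the classical inhibitors NFKBIA, NFKBIB and NFKBIE was divided by that of the subunits in each library. The ratio was 0.612, 0.827 and 1.06 in the vector libraries and 1.04, 1.15 and 1.53 in the overexpression libraries. The groups overlapped, since vector replicate 3 lay above overexpression replicate 1. The difference was 0.59 on the log2 scale (two-sided exact permutation p = 0.2, adjusted 0.24), in a design whose smallest p is 0.1. With the NFKBIZ row counted among the inhibitors the groups did not overlap, at 0.661 to 1.10 and 1.14 to 1.61. The log2 difference was then 0.60 (two-sided exact permutation p = 0.1, not adjusted). NFKBIA made up 82.7% ± 7.38 of the inhibitor sum in the vector libraries and 80.9% ± 3.08 with overexpression (SD, n = 3).

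**Figure D3:**
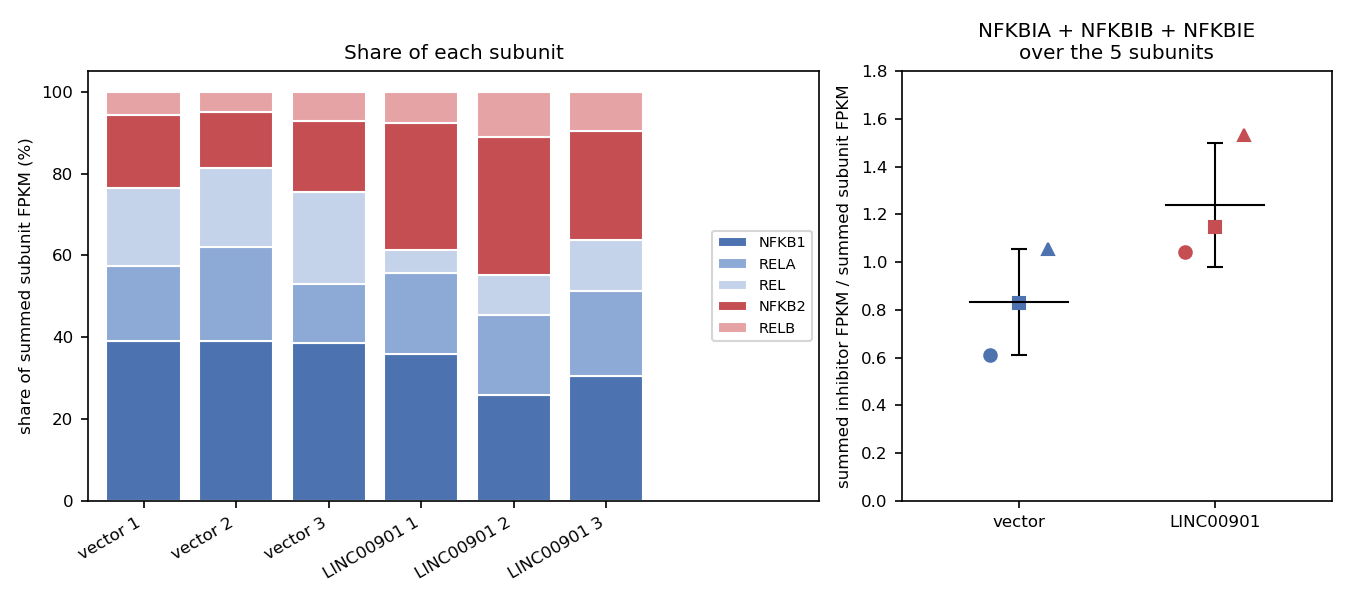
Left, share of each subunit in the summed FPKM of the 5 subunits, in percent, for each library. Right, summed FPKM of NFKBIA, NFKBIB and NFKBIE divided by the subunit sum (points, libraries by replicate symbol; bars, mean and SD). NFKB2 takes 13.6% to 17.9% in the vector libraries and 26.7% to 33.7% in the others, while the inhibitor ratios of the groups overlap at 1.04 to 1.06.

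The genes around the family were read from 8 lists of the pathway, which gave 90 tested rows. Of these, 35 were higher (38.9%) and 9 lower (10%) with overexpression, close to the 37.4% and 11.9% of all tested genes, and their median log2 change was 0.26 against 0.27. After median centring 21 were higher (23.3%) and 14 lower (15.6%), against 24.0% and 19.2%. The lists together thus did not stand apart from the background. All 9 rows that were lower also passed after median centring and after correcting for length and GC. Centring lowers every change by 0.21 log2, so lower rows passing after it was nearly fixed in advance. Of the 35 that were higher, 21 passed after centring and 17 after correcting for length and GC. The joined rows of TNFSF12, TRADD and UBE2V1 are among the 35 and could not be corrected. With each library left out in turn, 21 of the 35 higher and 2 of the 9 lower rows passed every time. Of the ligands, 2 of 11 rows were tested. IL1A, a cytokine that signals through the receptor IL1R1, was lower, at 0.300 ± 0.0624 against 1.84 ± 0.660 FPKM (SD, n = 3; limma adjusted p = 0.00179), and it also passed after median centring (-1.72 log2, adjusted p = 0.00157). The joined row of TNFSF12 and TNFSF13 was higher by 0.74 log2 (limma adjusted p = 0.0229), but not past the threshold after median centring (adjusted p = 0.0795) or without overexpression replicate 1 (0.0779) or 2 (0.0685). IL1A, this joined row, BCL3 and CXCL3 are the 4 called pathway rows with 1 group mean under 1 FPKM, which passed the filter only through the other group. Without the filter the limma adjusted p was 0.0120 for IL1A, 0.0668 for the joined row, 0.0747 for BCL3 and 0.144 for CXCL3. TNF itself lay below the filter, listed at 0, 0.47 and 0 FPKM with the vector and 0.90, 0.90 and 0.60 with overexpression. IL1B also lay below it, at 0.39, 0.60 and 0.35 against 0.15, 0.14 and 0.08 FPKM.

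Of 7 tested receptor rows, 3 were higher (42.9%) and 0 lower, near the 37.4% of all tested genes that were higher. After median centring 2 were higher (28.6%, against 24.0%) and 1 lower (14.3%, against 19.2%). TNFRSF1A, the main TNF receptor, was at 19.3 ± 0.09 against 12.6 ± 0.748 FPKM and IL1R1 at 9.88 ± 0.170 against 5.18 ± 1.57 (SD, n = 3). The limma adjusted p was 0.00133 for TNFRSF1A and 0.0114 for IL1R1, and with the length and GC correction TNFRSF1A no longer passed (adjusted p = 0.423). TNFRSF1B, the other TNF receptor, was higher by 0.47 log2 (adjusted p = 0.0325). It did not pass after median centring (adjusted p = 0.182) or without vector replicate 1 (0.0823) or 2 (0.0640) or overexpression replicate 2 (0.105) or 3 (0.0993). The receptors TLR4 and CD40 were listed at 0 in all 6 libraries.

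Of 21 tested adaptors and ubiquitin ligases 7 were higher (33.3%, against 37.4% of all tested genes) and 5 lower (23.8%, against 11.9%). After median centring 4 were higher (19.0%, against 24.0%) and 8 lower (38.1%, against 19.2%). The kinases IRAK2 and RIPK2, which act downstream of Toll-like and NOD receptors, stood at 5.88 ± 1.11 against 2.03 ± 0.650 and at 6.41 ± 0.539 against 3.19 ± 1.08 FPKM (SD, n = 3). SHARPIN, a subunit of the linear ubiquitin ligase, rose by 1.06 log2 and BCL10, a scaffold of the CARD-MALT1 complex, by 0.96 (limma adjusted p = 0.00402 and 0.00788). SHARPIN did not pass with the length and GC correction (adjusted p = 0.174). The lower rows, named after their values were seen, were RIPK1, TRAF2, TRAF3, TRAF5 and RBCK1. RIPK1, the kinase at the TNF receptor, stood at 7.13 ± 0.619 against 10.5 ± 1.07 FPKM (SD, n = 3; limma adjusted p = 0.00834), and it was the one of these 5 that passed whichever library was left out. All 5 also passed after median centring, RIPK1 with -0.74 log2 (adjusted p = 0.00279). TRAF3, which keeps the kinase NIK low, was at 2.75, 2.64 and 1.69 against 4.65, 3.18 and 5.62 FPKM. The limma adjusted p of TRAF3 was 0.0295, and 0.0762 and 0.0810 without vector replicates 1 and 3 and 0.0512 and 0.0840 without overexpression replicates 2 and 3. After median centring it was 0.0131.

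The IKK kinases themselves did not pass the test. CHUK (IKKα) was at 4.61 ± 0.479 against 5.16 ± 0.328 FPKM, IKBKB (IKKβ) at 2.10 ± 0.308 against 2.32 ± 0.127 and IKBKG (NEMO) at 1.85 ± 0.306 against 1.29 ± 0.310 (SD, n = 3). Their limma adjusted p was 0.305, 0.461 and 0.106, but CHUK was lower after median centring (adjusted p = 0.0345). The groups of CHUK overlapped, and with the length and GC correction it did not pass (-0.06 log2, adjusted p = 0.662). Of 11 tested rows of IKK and upstream kinases, 1 was higher (9.09%, against 37.4%) and 2 lower (18.2%, against 11.9%). After median centring 1 was higher (9.09%, against 24.0%) and 3 lower (27.3%, against 19.2%). TAB2, an adaptor of the kinase TAK1, rose from 3.21 ± 0.335 to 7.23 ± 0.936 FPKM (SD, n = 3; limma adjusted p = 0.00102). MAP3K14 (NIK), the kinase that triggers processing of NFKB2, was lower by 0.40 log2 (a change of -0.40, limma adjusted p = 0.0426). Its adjusted p was between 0.0778 and 0.111 without vector replicate 2 or 3 or any overexpression replicate. With median centring the change of MAP3K14 was larger, -0.60 log2 (adjusted p = 0.00997), and with the length and GC correction it was -0.72 (adjusted p = 0.00507). IKBKE changed by -0.48 log2 (limma adjusted p = 0.0490) and passed only when vector replicate 3 was the library left out, with adjusted p up to 0.140 otherwise. It was -0.69 log2 with centring (adjusted p = 0.0162) and -0.88 with the length and GC correction (adjusted p = 0.0107). Of the ligase that ubiquitinates IkB, 1 of 5 rows was higher (20%, against 37.4% of all tested genes) and 0 lower (against 11.9%). The higher row was BTRC (0.33 log2, limma adjusted p = 0.0401). BTRC did not pass with any of the 6 libraries left out (adjusted p 0.0532 to 0.114), nor after median centring (adjusted p = 0.367).

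Other inhibitors and brakes of the pathway had 6 of 13 tested rows higher (46.2%, against 37.4% of all tested genes) and 1 lower (7.69%, against 11.9%). After median centring 3 were higher (23.1%, against 24.0%) and 1 lower (7.69%, against 19.2%). TNIP1 (ABIN-1), which binds TNFAIP3 and ubiquitin chains, was at 3.73, 3.61 and 2.89 FPKM with the vector and 8.35, 8.34 and 8.78 with overexpression. Its log2 change was 1.21 (limma adjusted p = 0.000408), and 0.77 with the length and GC correction (adjusted p = 0.00464). TAX1BP1, an adaptor of TNFAIP3, rose by 0.86 log2 (limma adjusted p = 0.00106), and ITCH, a ligase of the same complex, was at 25.56, 21.75 and 23.95 against 20.80, 21.99 and 22.15 FPKM, with overlapping groups. TNIP2 (ABIN-2), another protein that binds TNFAIP3, did not pass (0.24 log2, limma adjusted p = 0.181), and with the length and GC correction it was lower (-0.37, adjusted p = 0.0472). ZC3H12A, a ribonuclease that cleaves inflammatory mRNAs, rose by 0.84 log2 (adjusted p = 0.0109), but not with the length and GC correction (adjusted p = 0.191). BCL3, an atypical IkB, was at 1.62 ± 0.155 against 0.860 ± 0.278 FPKM (SD, n = 3; limma adjusted p = 0.0268). It did not pass after median centring (adjusted p = 0.0909) or without overexpression replicates 1, 2 or 3 (0.0847, 0.0726 and 0.0601). The lower gene, named after its values were seen, was OTULIN, which removes linear ubiquitin chains (limma adjusted p = 0.0173, and 0.0637 without overexpression replicate 3). It was -0.69 log2 after median centring (adjusted p = 0.00482).

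Of 13 tested coactivators and modifiers, 4 were higher (30.8%, against 37.4% of all tested genes) and 0 lower (against 11.9%). After median centring 2 were higher (15.4%, against 24.0%) and 0 lower (against 19.2%). Correcting for length and GC, which was possible for 12, left 1 higher (8.33%, against 20.5%) and 2 lower (16.7%, against 18.0%). None of the 4 passed with that correction. CDK9, the kinase that releases paused polymerase, stood at 14.2 ± 1.24 against 7.58 ± 1.6 FPKM and SIRT6, a deacetylase that binds RELA, at 4.20 ± 0.361 against 2.18 ± 0.344 (SD, n = 3). Both passed after median centring (adjusted p = 0.0148 and 0.0147), whereas correcting for length and GC gave adjusted p = 0.0562 and 0.625. RPS6KA4, a kinase that phosphorylates RELA and histone H3, did not pass after median centring (adjusted p = 0.164). Its limma adjusted p of 0.0435 became 0.0695 and 0.0744 without vector replicates 1 and 2, and 0.0624, 0.0980 and 0.128 without overexpression replicates 1, 2 and 3. Without vector replicate 2 its log2 change of 0.56 became 0.37.

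**Figure D4:**
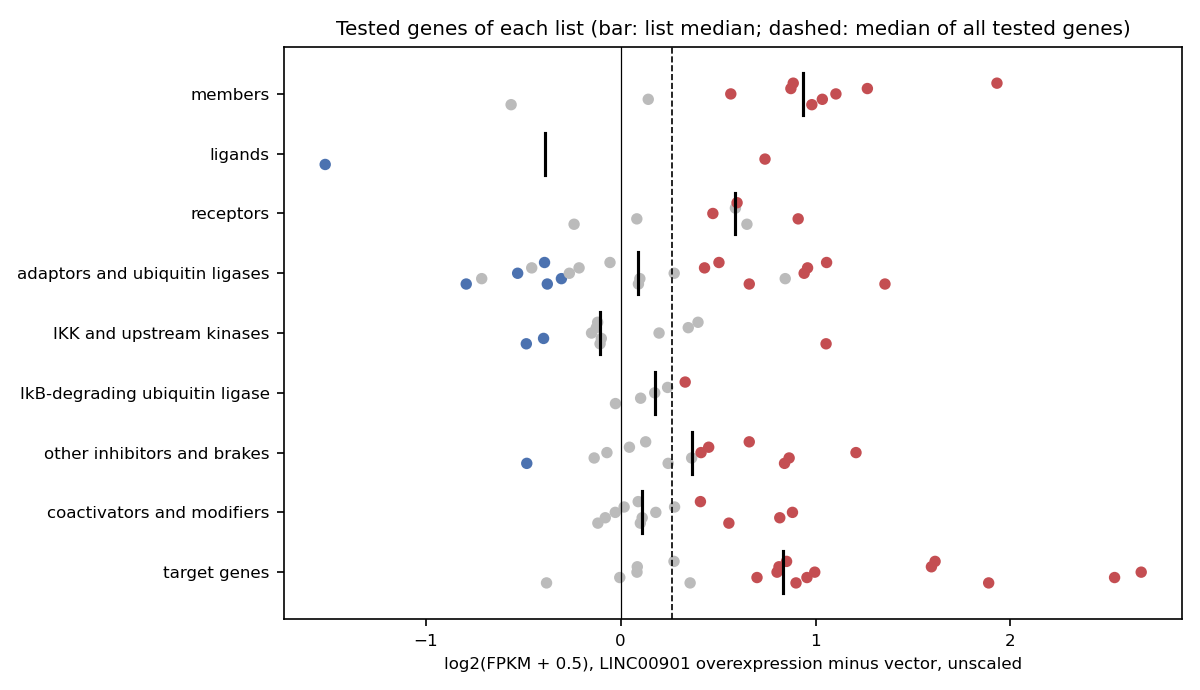
Difference in log2(FPKM + 0.5), LINC00901 overexpression minus vector, unscaled, for every tested gene of the members and of the 8 pathway lists. Red and blue points passed limma at an adjusted p of 0.05 (higher and lower) and grey points did not, short bars are list medians and the dashed line is the median of all tested genes, 0.27. The members (0.93) and the target genes (0.83) have the highest medians. The ligands, with 2 tested rows, lie lowest at -0.39, and IKK and upstream kinases lie at -0.11.

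Known target genes of NF-kB had 12 of 18 tested rows higher (66.7%, against 37.4% of all tested genes) and 0 lower (against 11.9%), with a median log2 change of 0.83. After median centring 9 were higher (50%, against 24.0%) and 0 lower (against 19.2%). After correcting for length and GC 9 were higher (against 20.5%) and 1 lower (5.56%, against 18.0%). A further 12 of the 30 rows lay below the filter. The chemokine CXCL2 was at 10.6 ± 0.281 against 1.24 ± 0.121 FPKM and IER3, an early-response gene of cell survival, at 43.6 ± 4.56 against 7.09 ± 0.427 (SD, n = 3). The urokinase gene PLAU stood at 64.7 ± 7.3 against 17.1 ± 2.11 FPKM, and GADD45B, a stress sensor, at 6.30 ± 0.663 against 1.77 ± 0.593 (SD, n = 3). CXCL8, the neutrophil chemokine, was at 53.0 ± 2.12 against 27.1 ± 0.577 FPKM (SD, n = 3; limma adjusted p = 0.000164). TNFAIP2, a TNF-induced gene, was at 11.65, 4.87 and 4.10 FPKM with the vector and 15.76, 18.64 and 26.06 with overexpression (limma adjusted p = 0.0123). All 6 of these genes also passed after median centring, CXCL2 by 2.46 log2, IER3 by 2.33, PLAU by 1.68, GADD45B by 1.40, TNFAIP2 by 1.39 and CXCL8 by 0.75.

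Other targets were less steady. BCL2L1, an anti-apoptotic gene, had a limma adjusted p of 0.0460, and 0.1 after median centring. Without overexpression replicates 1, 2 or 3 it was 0.0878, 0.0864 and 0.124, and without vector replicate 1 the log2 change of 0.996 became 0.58. CXCL3 had a limma adjusted p of 0.0437, and 0.109 after median centring, and passed only when vector replicate 2 was the library left out (up to 0.125 otherwise). CXCL1, a chemokine of the same cluster as CXCL2 and CXCL3, did not pass, at 66.6 ± 2.43 against 67.05 ± 7.05 FPKM (SD, n = 3; limma adjusted p = 0.974), but it was the target gene that was lower with the length and GC correction (-0.59 log2, adjusted p = 0.00300). BIRC3 was at 7.69 ± 1.46 against 6.25 ± 0.987 FPKM (SD, n = 3; limma adjusted p = 0.218). ICAM1, an adhesion molecule below the filter, went the other way in value, at 0.32, 0.34 and 0.46 against 0.82, 0.51 and 0.82 FPKM, and IL6 was listed at 0 in all 6 libraries.

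The tested genes most like a member were ranked by the root mean square difference of log2 values, each gene centred on its mean over the 6 libraries. For NFKBIA they were TRABD, MACROD1 and TLCD1 (0.106, 0.169 and 0.181), which shared its order of libraries within each group. For TNFAIP3 they were RPL35, RPL8 and PFN1 (0.0636, 0.0806 and 0.0965). For RELA they were SAP30BP, PKP3 and APH1A (0.0480, 0.0570 and 0.0626). With 6 libraries in 2 groups, the difference between the groups sets most of this likeness.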

How the data were processed

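RNA sequencing of 6 MIA PaCa-2 libraries, 3 with the pCDH vector and 3 with LINC00901 overexpression, was analysed from 1 table of FPKM values. The authors deposited FPKM per gene and library, per the file headers. cutadapt, FastQC and HISAT2 were used with build hg19, per the submitters' processing notes, and the tool that made the FPKM values is not given in the sources used here. The depth per library is unknown, and no whole reads could be recovered: of 1209 ratios between low values in the vector libraries 18.9% lay within 0.1 of a whole number, where an even spread gives 20%. The mean of a group of 3 libraries carries the error given as SD.

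Values were transformed to log2(FPKM + 0.5), a scale that understates the change of low genes. Rows with a mean of at least 1 FPKM were tested (9694 of 18268) by limma (version 3.58.1, R 4.3.3), using a variance trend on intensity, and p-values were adjusted over all tested rows by Benjamini-Hochberg. Shares and ratios were compared with exact permutation tests. Gene length and GC content came from the longest GENCODE 29 transcript of each symbol (91.1% of tested rows) and were removed as spline trends. Members, lists and tests were chosen with earlier results of these data known. Named genes were all members, and from each list the 4 with the largest change (8 for target genes) among those called and without overlap. Further pathway genes, among them those that did not pass or lay below the filter, were named after their values were seen. On data simulated from these 9694 genes, with 9494 left unchanged, limma found 13.4% of genes given a 0.5 log2 change. It found 64.2% of genes given 1 log2, 89.4% of genes given 2 log2, and called 0.0211% of the unchanged ones. The real fit called far more genes (3621 higher and 1152 lower), so these rates need not hold for it. Alternatives were other pseudocounts, filters, normalizations, variance models and thresholds, the replicate block, and leaving out each library. The length, GC and level corrections, leaving out joined rows, and centring with the block were added after seeing the data. Tables and exact tests were made in Python 3.11.15 with scipy 1.17.1. Of the genes that this rule or the marker lists name, 2 are not reported here.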

Additional observations from a re-analysis of the deposited data

How the results depend on the processing

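The number of members higher with overexpression (8) was 5 without a filter on low values, 2 with a mean of at least 5 FPKM (3 members tested), 5 with quantile normalization, 5 with median centring, 4 at an adjusted p of 0.01, 3 after correcting for length and GC, 3 after correcting for level too, 5 with median centring and the replicate block, and 5 to 8 with each library left out. The number lower (0 by limma, also 0 at an unadjusted p of 0.05) became 1, REL, with median centring and the replicate block, and stayed 0 with each library left out. Over all genes, 3621 of 9694 tested were higher. This became 2396 of 4830 with the mean of at least 5 FPKM. Of 9694 it became 1865, 2331 and 2287 with quantile normalization, median centring and an adjusted p of 0.01. It was 1809 and 1551 of 8830 with the corrections without and with level, and 2033 of 9694 with centring and block. With each library left out it was 2768 to 3371 of 9694, and without a filter 3164 of 18268. The 1152 lower calls became 422, 2024, 1866 and 594 in the first 4 of these settings, and 812 to 1004 with each library left out. Pathway genes higher (35) were 20, 20, 21 and 18 in those 4 settings, 18 and 14 with the corrections, 21 with centring and block, and 22 to 35 with each library left out. Pathway genes lower (9) were 3, 18, 14 and 2 in those 4, 5 without a filter, 15 and 15 with the corrections, 3 with the replicate block, and 3 to 5 with each library left out. NFKB1 turned from 0.14 to -0.12 with quantile normalization, -0.067 with centring, -0.085 and -0.12 with the corrections, and -0.067 with centring and block. The log2 inhibitor ratio was 0.39 to 0.78 with each library left out, and the RELA share difference -0.56 to 3.64 percentage points. The cause of these changes was not tested.

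Same-numbered libraries did not deviate together (correlations -0.0370, -0.00574 and -0.00503). The labels do not say whether the numbers pair the samples, and these correlations cannot settle it. With the replicate block 7 members were higher, 3262 genes were higher and 965 lower, 33 pathway genes were higher, and the log2 inhibitor ratio was 0.59. Compared with centring alone, centring with the block gained NFKBIA (limma adjusted p = 0.00570) and lost RELB (0.0573). Low FPKM values, whose depth is unknown, limit RELB, the NFKBIZ row and TNFAIP3.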
